A study of Mus musculus with 6 samples.

Results

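The 256 genomic regions described here held an NRF2 peak in each of 4 ChIP-seq peak lists from mouse embryonic fibroblasts (MEFs). They were found by merging all peaks that overlapped by at least 1 bp on the same chromosome, which gave 14390 regions in all, of which 256, or 1.78%, had a peak from every list. A further 209 regions had a peak in 3 lists, 476 in 2 lists and 13449 in 1 list. The members were therefore selected on peak calls, that is on scores above the authors' threshold in each library, and their ranks below are a description with no test.

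The series compared NRF2 binding, by chromatin immunoprecipitation with the NRF2 antibody ab62352 from Abcam, in cells with and without GCN2, the kinase that senses shortage of amino acids. All cells were MEFs of the 129S6/SvEvTac strain, labelled as wild type (WT) or GCN2-/-, and grew for 24 h in either complete DMEM or medium that lacked leucine. This gave 4 NRF2 libraries, WT complete, WT no leucine, GCN2-/- complete and GCN2-/- no leucine, with 1 library each and 2336, 5980, 3141 and 4600 peaks. Input libraries came from complete medium only, 1 for each genotype, and were not analysed here on their own; they were the controls for peak calling, also for the libraries without leucine. With 1 library per condition, differences between lists could not be set against replicates, and sequencing depth was unknown. A peak list measures neither the cell type nor the loss of GCN2, so it checks neither label, and whether the cells came from pooled embryos or from 1 clone was not given in the sources used here.

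NRF2, encoded by Nfe2l2, is held in the cytoplasm and marked for degradation by KEAP1 until oxidants or electrophiles modify KEAP1. In the nucleus it pairs with a small MAF protein and binds the antioxidant response element (ARE), whose core reads TGACNNNGC with N for any base. It is known for inducing genes of glutathione and thioredoxin metabolism, NADPH supply, quinone detoxification, and heme and iron handling. AP-1 factors, which are dimers of JUN and FOS proteins, bind the related sequence TGANTCA, and the full form TGACTCAGC holds both.

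A genome sequence of the build was not used here, so sequence was examined only where a region was centred in a RefSeq promoter of the GRCm38.p6 assembly, which covers 250 bases before to 50 after a transcription start site (TSS). This was so for 10 of the 256 regions. The stretches below show the bases around the mean peak centre of 9 of them, 5′ to 3′ on the strand of the gene, with the ARE core or its reverse complement GCNNNGTCA in capitals. At Aox1, which had no ARE core, the capitals mark TGANTCA. Where a stretch of 61 bases would run past the TSS, only the motif with 10 bases on each side is shown.
Prdx1, chr4:116685430-116685490, plus strand: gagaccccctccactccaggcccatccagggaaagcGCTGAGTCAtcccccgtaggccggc
Txnrd1, chr10:82859086-82859146, plus strand: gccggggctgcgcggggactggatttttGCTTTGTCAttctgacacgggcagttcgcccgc
Me1, chr9:86695902-86695930, minus strand: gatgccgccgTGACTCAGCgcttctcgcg
Ptges3, chr10:128058979-128059007, plus strand: cgggcattttGCTGCGTCAccagccgccg
2210408F21Rik, chr6:31220338-31220366, plus strand: ctgcggttctGCTGTGTCAtgcaagaagg
Gm40403, chr12:40248111-40248139, minus strand: agaggcagggTGACTCAGCatttcctatt
Gm12092, chr11:29645609-29645669, minus strand: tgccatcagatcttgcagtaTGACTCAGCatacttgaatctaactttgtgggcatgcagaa
Gm36043, chr19:29385091-29385151, minus strand: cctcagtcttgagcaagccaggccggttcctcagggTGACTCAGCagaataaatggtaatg
Aox1, chr1:58029719-58029774, plus strand: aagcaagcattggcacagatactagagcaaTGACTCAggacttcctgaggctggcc

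The ARE core TGACNNNGC, searched on both strands, was present in 8 of these 10 promoters (80%, exact 95% Clopper-Pearson interval 44.4 to 97.5%). Of all 32851 RefSeq promoters of the same length, 12.4% held it. The same count was 14 of 110 promoters (12.7%, interval 7.14 to 20.4%) for regions found in 1 list, 6 of 7 for regions in 2 lists and 4 of 4 for regions in 3 lists. Thus the share was close to that of all promoters for regions in 1 list, and it was above that level for the few promoter regions in 2, 3 or 4 lists, whose intervals overlap each other. These intervals cover counting error only.

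In all 8 promoters an ARE core lay within 50 bp of the mean peak centre, at offsets from -5.5 to 13 bp along the strand of the gene. At Txnrd1 the middle of the motif was 2 bp from the centre, at 2210408F21Rik 1 bp and at Ptges3 -0.25 bp, so motif and centre nearly coincided there. Among the promoters of regions in 1 list, 8 of 110 (7.27%) had an ARE core within the same 50 bp. For regions in 2 lists it was 6 of 7 and for regions in 3 lists 3 of 4, so this was not particular to regions in all 4 lists. The AP-1-type sequence TGANTCA was in 6 of the 10 promoters, against 7.81% of all promoters, and was part of the ARE core in 5 of them. Those 5, at Prdx1, Me1, Gm40403, Gm12092 and Gm36043, held the full TGACTCAGC, which was in 0.454% of all promoters. This sequence was added to the search after the data had been seen. In promoters of regions in 1, 2 and 3 lists, TGANTCA was in 13 of 110, 4 of 7 and 2 of 4. TGACTCAGC was in 3 of 110, 3 of 7 and 1 of 4 of them. Neither sequence was thus particular to regions in all 4 lists. Aox1 had TGANTCA 7.75 bp from its centre, and Gm13073, at the region listed -6623 bp from Slc25a33, matched neither ARE core nor TGANTCA. Letters in a window show a match and not a bound site.

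**Figure D1:**
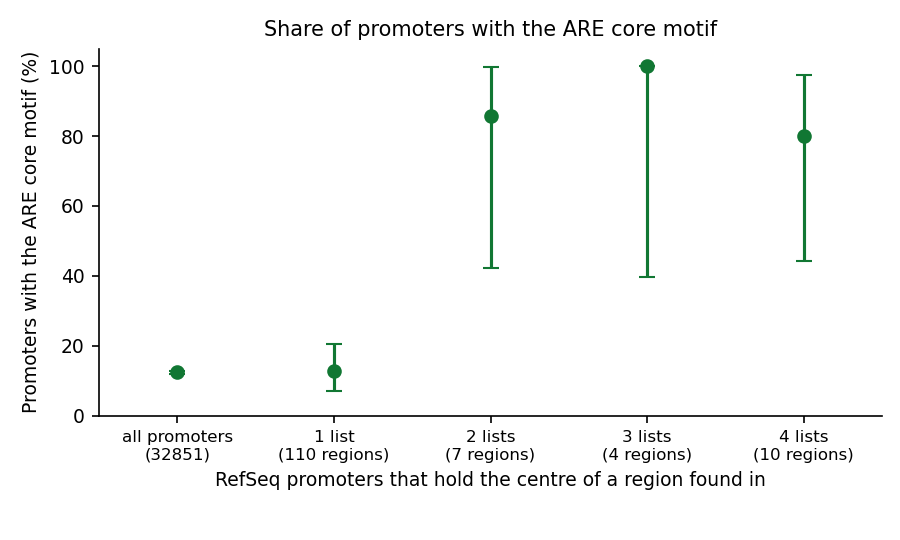
Share of RefSeq promoters with TGACNNNGC on either strand (vertical axis, percent), for all 32851 promoters and for promoters that hold the centre of a region found in 1, 2, 3 or 4 lists; bars are exact 95% intervals. The points for all promoters and for 1 list lie at 12.4 and 12.7%, and the point for 4 lists at 80% of 10 regions.

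The regions in all 4 lists held the highest scores of every list. The 10 peaks with the highest score of each list were all members, as were 91, 90 and 89 of the top 100 in the WT complete, WT no leucine and GCN2-/- no leucine lists. In the GCN2-/- complete list the corresponding number was 88 of 99, because of ties. The median peak score, the authors' whole-number value for each peak, was 127, 163.5, 109 and 122.5 for members in these 4 lists taken in the order WT complete, WT no leucine, GCN2-/- complete and GCN2-/- no leucine. It was 36, 30, 34 and 30 for the other peaks. The selection on peak calls itself favours high scores.

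Below, ranks are given in that same order of lists, with rank 1 for the highest score and tied peaks sharing their mean rank; a percent rank is the rank as a percentage of the length of its list. Ranks from lists of different length describe each list alone and say nothing of changed binding. The median percent rank of the 256 regions was 7.32, 2.68, 5.22 and 3.77%. The highest-scoring 10% of the lists are 233, 584, 310 and 464 peaks, so these counts are bounded by list length. They held 149, 224, 180 and 214 of the regions. In every list 115 regions lay in that 10%, and 11 were in the top 1%. At the other end, 38 regions fell below the middle of at least 1 list and 5 below the middle of at least 2. A region had its worst percent rank in these lists in 119, 15, 79 and 43 cases. Percent rank depends on list length, and WT complete was the shortest list and WT no leucine the longest. These counts therefore do not compare the lists. Among the top 200 peaks of each list, members numbered 137, 146, 145 and 144, with 198 peaks counted in both WT lists because of ties.

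**Figure D2:**
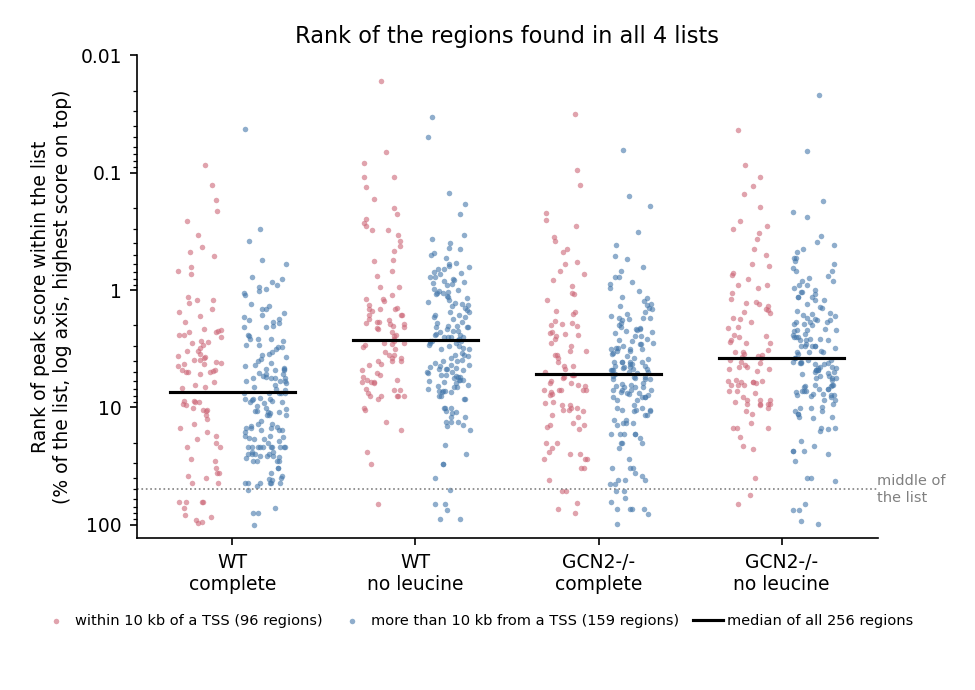
Percent rank of each region's peak (vertical log axis, highest score on top) in the 4 lists, split by distance to the TSS; the black line is the median of all 256 regions, and Arntl, whose 4 peaks fall on both sides of 10 kb, is not drawn as a point. Most points lie in the top 10% of each list, and a few regions of both kinds reach the bottom of a list.

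Of the 10 best-ranked regions near a TSS, 5 had a known NRF2 target as nearest gene, namely Ftl1, Gclc, Prdx1, Gstp2 and Slc48a1. In every list 96 regions (37.5%, interval 31.6 to 43.7%) lay within 10 kb of the TSS that the authors' annotation names as nearest. They were nearest to 92 of 49997 genes in the RefSeq gene table, or 0.184%. A list of 67 known NRF2 target genes had 18 members among them, which together were nearest to 20 regions. Their median of the mean percent rank over the 4 lists was 2.47%, with 15 of 20 in the top 10% of every list, beside 6.07% and 32 of 76 for the other regions within 10 kb. When distance was taken to every RefSeq promoter instead of the nearest annotated gene, 119 of 27025 genes (0.44%) had a TSS within 10 kb, and 16 of the 56 targets in that table were among them. By either measure 21 targets were near a region. The list was written with earlier results of these data known, so its share is a description.

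Of the 9 target genes of iron and heme handling, 5 were nearest to a region. Ftl1, which encodes the light chain of the iron store ferritin, had its region at -1106 bp from the TSS (chr7:45460842-45461142), annotated to the transcript end of the neighbouring Bax. It had scores of 1271, 1984, 1159 and 974 and ranks 2, 1, 1 and 5. No region near a TSS ranked higher on average. Fth1, the ferritin heavy chain, had one at -1969 bp (ranks 28.5, 34, 19 and 63). Slc48a1, a transporter of heme out of lysosomes, had its region in intron 1 of 2, 2513 bp inside the gene. Its ranks of 8 and 8 in WT and of 29 and 41.5 in GCN2-/- all lay in the top 1%.

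Hmox1, the enzyme that opens the heme ring, had 2 regions, at -9657 and -3955 bp, 5727 bp apart from centre to centre. The distal one ranked 82.5, 13.5, 14 and 14, and the proximal one 155.5, 72, 64 and 20.5. Both stood lowest in the WT complete list. Fech, which inserts iron into protoporphyrin to make heme, had its region in intron 2 of 10 with ranks 56, 1432, 222 and 116, its lowest standing being in the WT no leucine list.

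In the glutathione group, Gclc was the single hit among 8 genes of glutathione synthesis and use by nearest gene. It encodes the catalytic subunit of the rate-limiting ligase, and its region lay at -3797 bp (chr9:77750588-77750888) with scores of 1107, 1046, 453 and 373 and ranks 4, 6.5, 15 and 23. Ggt1, which cleaves extracellular glutathione, was added by the RefSeq TSS measure, with the region listed at Lrrc75b at -9846.75 bp. Of 12 glutathione transferases, which join glutathione to electrophiles, Gstp2 (-3910 bp, ranks 28.5, 15, 11 and 15) and Gstm1 (intron 7 of 7, ranks 11, 23, 33 and 59) were nearest genes. The Gstp2 region also lay at -8214 bp from the RefSeq TSS of Gstp1. Gstm1, Gstm6 and Eps8l3 formed a run of 3 regions spanning 162564 bp on chromosome 3, in the cluster of Gstm genes. The Gstm6 region, at intron 7 of 7 like that of Gstm1, ranked 87.5, 56.5, 47 and 29. Gst genes have near-identical copies, so the assignment of reads among them is uncertain.

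The thioredoxin group had 4 of 6 genes. Prdx1, a peroxiredoxin that reduces hydrogen peroxide, had its promoter region at -154 bp with ranks 12, 17, 34 and 12, and Txn1, the cytosolic thioredoxin, at -439 bp with 15, 16, 21.5 and 33. Both were in the top 2% of each list. Txnrd1, which regenerates reduced thioredoxin, had a promoter region at -80 bp with ranks 27, 18.5, 59.5 and 427.5, the lowest standing being in GCN2-/- no leucine. A second region lay 44849 bp from it, in intron 1 of 1700028I16Rik, and there the WT complete rank of 222 was the lowest standing and the GCN2-/- complete rank of 18 the highest. Prdx6 (intron 1 of 4, 210.5, 98, 23 and 27.5) likewise stood lowest in WT complete.

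Among 12 genes of quinone, aldehyde, carbonyl and epoxide metabolism, Nqo1, Aox1 and Ephx1 were nearest genes. Nqo1, the quinone reductase used as a standard readout of NRF2 activity, had scores of 21, 91, 56 and 52 in its promoter at -470 bp. These gave ranks 2222.5, 365, 462.5 and 684, so the Nqo1 peak was among the lowest of the WT complete list and in the upper part of the others. Aox1, aldehyde oxidase, ranked 117.5, 169, 630.5 and 427.5, and Ephx1, microsomal epoxide hydrolase, 322.5, 228, 2504.5 and 294.5. For NADPH supply 1 of 6 genes was nearest, the malic enzyme gene Me1, whose TSS lay 3 bp from the peak centre in the WT complete list (ranks 73, 28, 147.5 and 127). G6pdx, the entry enzyme of the pentose phosphate pathway, had its RefSeq TSS 3474.25 bp from the region listed at Ikbkg on chromosome X (ranks 52, 183.5, 128.5 and 41.5). Tkt, a further gene of this group, holds a region in an intron that is listed at Mir3076 and described below.

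Among 9 regulators of the pathway, Mafg and Sqstm1 were nearest genes. Mafg encodes a small MAF partner of NRF2, and its region in intron 1 of 2 ranked 56, 84.5, 48.5 and 188. Sqstm1, the autophagy receptor p62 that binds KEAP1, had regions at -2119 bp (ranks 116, 71, 222 and 72.5) and at -298 bp (293.5, 416, 630.5 and 817.5). The promoter region had the lower standing of the pair in each list. None of the 5 export pump genes was nearest to a region within 10 kb in all 4 lists. An assigned peak within 10 kb in at least 1 list was found for 4 of the 5. Such a peak was also found for 4 of 17 amino acid response, 1 of 9 AP-1 subunit and 2 of 10 fibroblast genes. The same held for 6 of 16 genes of other cell types. The share over all genes was not counted, so this is no result about the pumps. The pump gene without such a peak, Abcc5, holds a region in intron 17 of 29 that is listed at Cyp2ab1 (-46466 bp) and ranked 406, 124.5, 222 and 333.5.

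Genes of the other lists were not nearest to any region within 10 kb, which with 0.184% of all genes so placed is no result about lists of this size. The counts were 0 of 17 ATF4 and amino acid response genes, the transcriptional arm downstream of GCN2, of 9 AP-1 subunit genes, of 10 fibroblast genes and of 16 genes of macrophages, neurons and hepatocytes. Jun, an AP-1 subunit, was the nearest gene of a region at -110410 bp in a B3A repeat, with ranks 257.5, 151.5, 2562.5 and 137.5. A gene without a shared region may still have a peak in fewer lists.

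**Figure D3:**
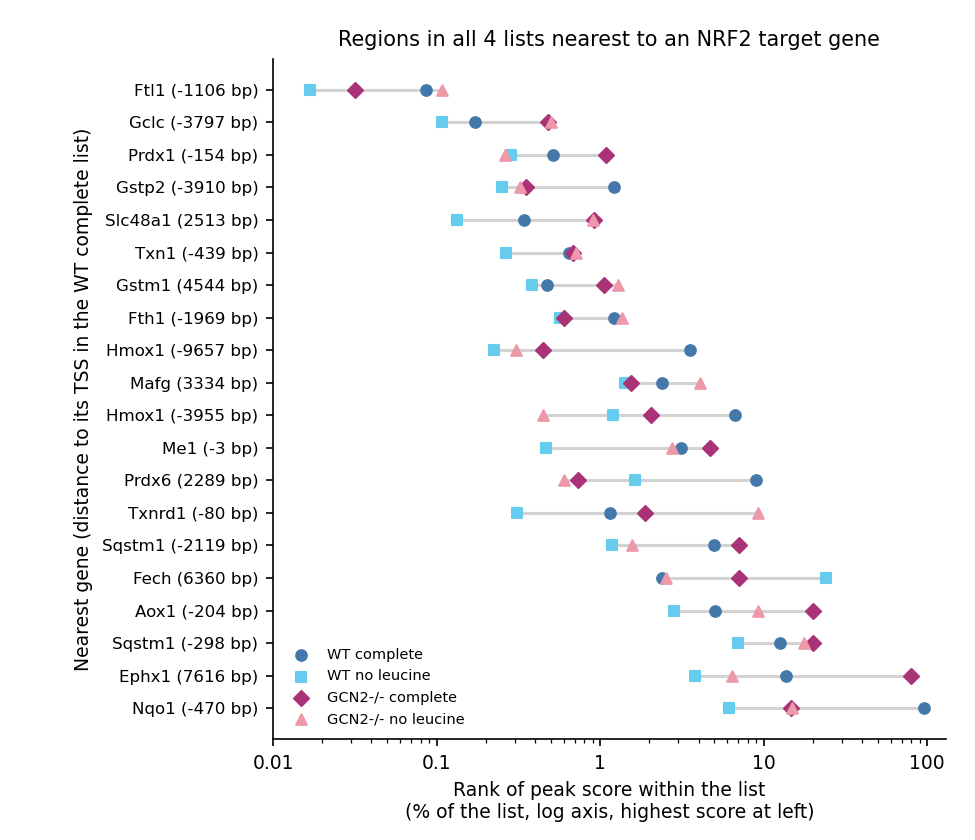
Percent rank (horizontal log axis, highest score at left) of the 20 regions nearest to an NRF2 target gene, 1 row per region with 1 symbol per list and a grey line for the range. Ftl1 heads the plot with every symbol near 0.1% or below, and Nqo1 at the bottom spans the range from the upper part of 3 lists to the end of the WT complete list.

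Other nearest genes stood beside the targets among the 10 best regions near a TSS. Creld1, a gene mutated in some heart septal defects, had a region in intron 2 of 9 that overlaps an L1MB5 repeat and ranked 5, 5, 3 and 2. Brd2, a reader of acetylated histones, had one in intron 1 of 12 (ranks 6, 4, 9 and 9). The region listed at the microRNA gene Mir3076 (chr14:30564459-30564759; ranks 17, 10, 4 and 4) lies in intron 4 of 13 of Tkt, which encodes transketolase of the pentose phosphate pathway. Tkt is itself on the list of NRF2 targets. It is not in the counts of targets above, which go by nearest gene or by a RefSeq TSS within 10 kb. Ccl1, a chemokine gene, was nearest to a region 4764 bp downstream of its TSS (ranks 16, 12, 8 and 13). All 4 were in the top 1% of every list, as were Ftl1, Gclc, Slc48a1 and Txn1.

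Most of the regions, 159 or 62.1%, were more than 10 kb from the nearest annotated TSS in all 4 lists, and 1 region, at Arntl, crossed the limit from -9857 bp in WT complete to -10044 bp in GCN2-/- no leucine. The median distance was 19664.5 bp in the WT complete list, beside 29065 bp for its other peaks, and 45.3% lay upstream of the TSS. In that list 20 members were within 1 kb, 77 from 1 to 10 kb, 91 from 10 to 50 kb, 39 from 50 to 100 kb, 15 from 100 to 200 kb and 14 beyond 200 kb. Distal regions were not confined to low ranks: 68 of 159 were in the top 10% of every list, as were 47 of 96 near regions. Their median mean percent rank was 6.74%, beside 5.06% for the near regions.

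The region with the best mean percent rank of all 256 was distal. It lies in intron 2 of 9 of Rxra, the retinoid X receptor alpha that pairs with many nuclear receptors, 29865 bp from the TSS (chr2:27740298-27740598), with scores of 1381, 1343, 997 and 1188 and ranks 1, 2, 2 and 1. It was followed by an intergenic region 74183 bp from the TSS of A530013C23Rik (chr2:167765210-167765510; ranks 7, 3, 5 and 8). These were the only distal regions in the top 1% of every list. D630024D03Rik (intron 1 of 4, 20892 bp) had scores of 384, 825, 717 and 1078 and ranks 26, 9, 6 and 3, the lowest standing being in WT complete.

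The next distal regions included introns of Fnbp1 (13892 bp, ranks 9, 22, 36 and 11), which shapes membranes, and of Tmprss6 (18084 bp, 20, 20.5, 32 and 44.5), the protease that restrains the iron hormone hepcidin. An intron of Pparg, the nuclear receptor of fat cell formation, held a region 58385 bp from the TSS (22, 39.5, 39 and 41.5). One in Chd2, a chromatin remodeller, lay at 24142 bp (43.5, 61, 13 and 24.5). Intergenic ones lay nearest to Slc16a9, of the monocarboxylate transporter family (42629 bp, 14, 29, 44.5 and 10), to Cyb5b, a cytochrome b5 of the outer mitochondrial membrane (-10743 bp, 34, 46.5, 17 and 24.5), to Il1r2, the decoy receptor of interleukin-1 (-50832 bp, 32, 24, 43 and 31.5), to Runx1t1, a transcriptional corepressor (-321680 bp, 19, 35, 30 and 47.5), and to Gm7854 (-119987 bp, 13, 69, 37 and 18). All of these lay in the top 2% of every list.

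The 5 regions farthest from a TSS were listed at Slc8a1 (-639055 bp, in an RMER19B repeat), Mir6341 (-491287 bp), Sall1 (-448443 bp), Fhit (384068 bp) and 1500009L16Rik (333610 bp). A large distance did not always mean intergenic: the Mir6341 region is in intron 11 of 13 of A830018L16Rik and the Fhit region in intron 2 of 8 of Fhit itself, a gene that spans a fragile site. Their ranks differed, from 45, 30, 138.5 and 16 at 1500009L16Rik to 210.5, 649.5, 1303.5 and 221.5 at Fhit. Nearest annotated genes also missed RefSeq starts: 16 of the 159 distal regions (10.1%) had a RefSeq TSS within 10 kb. In 3 of them the region was centred in that promoter, namely Gm40403 at the Gm7008 region (24804 bp in the files), Gm12092 at the Rtn4 region (-47268 bp) and Gm36043 at the Cd274 region (17680 bp). Each of those 3 promoters carries TGACTCAGC, shown above.

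By annotation class in the WT complete list, 119 regions were intergenic (46.5%), 113 intronic (44.1%), 13 promoter-TSS (5.08%, interval 2.73 to 8.53%), 5 at a transcript end, 3 in a 3′ UTR, 2 in an exon and 1 in a non-coding RNA. Of the intronic ones 45 were in intron 1. The nearest gene was the same in all 4 lists for all 256 regions, and the class was the same for 253. The share within 10 kb of a TSS was 25.0% for regions in 1 list, 25% in 2 lists, 29.7% in 3 lists (interval 23.6 to 36.4%) and 37.5% in 4 lists, whose interval does not overlap those for 1 or 2 lists. Promoter-TSS shares were 1.97, 1.89, 4.31 and 5.08%. Exons made up 5.72% of the regions in 1 list (interval 5.33 to 6.12%) and 0.781% of those in 4 (0.0948 to 2.79%), with 3.57 and 0.957% in 2 and 3 lists.

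Score moves with the number of lists, so members were also set beside the other peaks of the highest-scoring 10% of the same list. Within 10 kb were 43.0, 40.2, 37.2 and 38.8% of member peaks and 29.8, 25.0, 31.5 and 25.2% of the others. The member share was the higher in each list, with intervals that are apart in WT no leucine (33.7 to 46.9% and 20.6 to 29.8%) and GCN2-/- no leucine (32.2 to 45.7% and 19.9 to 31.1%). They overlap in WT complete (34.9 to 51.3% and 20.3 to 40.7%) and GCN2-/- complete (30.1 to 44.7% and 23.7 to 40.3%). Promoter-TSS shares in that top 10% were 7.38, 5.80, 4.44 and 4.21% of member peaks. They were 5.95, 2.78, 3.08 and 0.8% of the others, with intervals that overlap in each list. The exon share was not compared there. Scores still differ within that top 10%, and their part in these results was not tested.

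**Figure D4:**
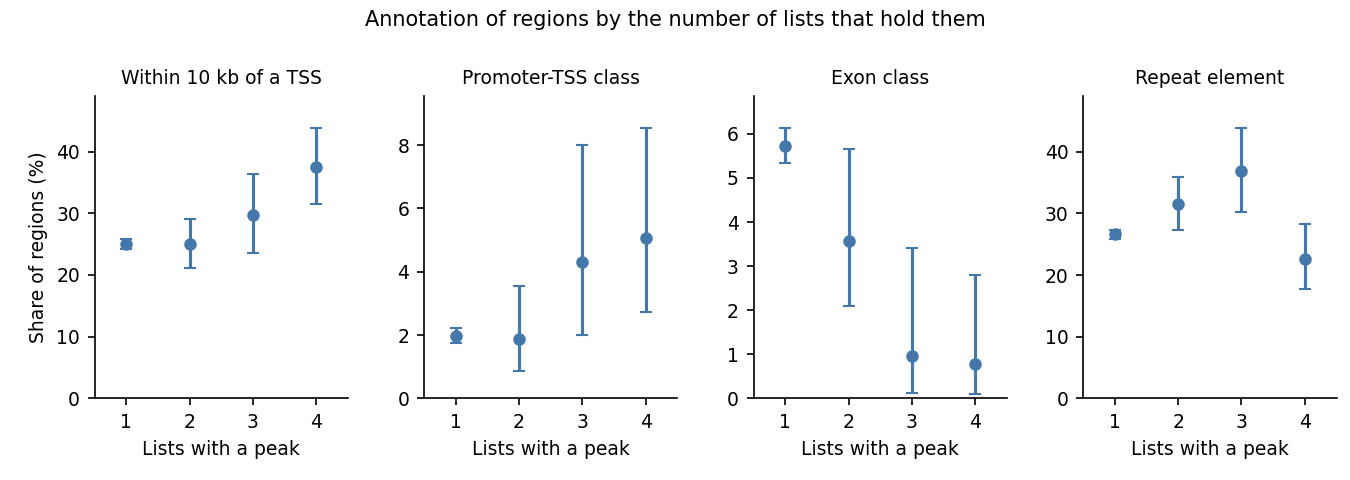
Shares of regions (percent) within 10 kb of a TSS, in the promoter-TSS class, in the exon class and in a repeat element, by the number of lists with a peak; points are shares with exact 95% intervals, and the vertical axes differ between panels. From 1 to 4 lists the share within 10 kb goes from 25.0 to 37.5% and the exon share from 5.72 to 0.781%, while the repeat share is highest at 3 lists.

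The promoter-TSS regions included, besides those at Prdx1, Txn1, Txnrd1, Nqo1, Aox1, Me1, Sqstm1 and 2210408F21Rik, regions at Sfi1, Numbl, Dst and Ptges3. Ptges3 encodes the HSP90 co-chaperone p23 and had ranks 160, 137.5, 780 and 280.5. Numbl, a relative of the cell fate protein NUMB, had 53.5, 98, 165.5 and 396, and Dst, which encodes the cytoskeletal linker dystonin, 98, 239, 222 and 620. The class at Dst was assigned through a transcript of the neighbouring Bend6, and the Sfi1 peak was in intron 1 of 32 in WT no leucine and GCN2-/- complete. The Gapdh region, at -998 bp in WT no leucine, was of the promoter-TSS class in that list only and at the transcript end of Ncapd2 in the other 3 (ranks 764.5, 424, 2056 and 280.5). GC content of the 13 promoter-TSS windows was higher than in introns or between genes, with a median of 61.4% beside 50.7% for intronic and 49.9% for intergenic members. Me1 had the most GC-rich region of all 256, at 81.1%, and Dst followed at 79.9%.

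The median GC content over all members was 50.7%, with 52.6% near a TSS and 49.9% beyond 10 kb. Regions in 1, 2 and 3 lists had medians of 52.2, 50.5 and 49.6%. In the highest-scoring 10% of each list the member medians were 50.8, 50.5, 51.0 and 50.3% and those of the other peaks 49.8, 49.8, 50.7 and 48.8%. Members thus had the higher median in each list among the highest scores. Over the whole lists they had the lower median in each, at 50.8, 50.5, 50.8 and 50.5% beside 51.2, 52.2, 52.2 and 51.8%. In both comparisons the quartile ranges of member and other peaks overlapped in every list. In the highest-scoring 10% of GCN2-/- no leucine, for example, they were 47.2 to 54.1% and 46.6 to 51.8%.

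By the peaks of WT complete, repeat elements held 58 regions (22.7%, interval 17.7 to 28.3%), 24 in SINEs, 21 in LTR elements and 10 in LINEs. By those of WT no leucine, GCN2-/- complete and GCN2-/- no leucine they held 57, 53 and 56. The share was 26.6% of regions in 1 list, 31.5% in 2 and 36.8% in 3. Among the highest-scoring 10% of each list, 16.1, 22.3, 18.9 and 22.0% of member peaks and 34.5, 31.9, 35.4 and 44.4% of the other peaks were in a repeat. Members thus had the lower share in each list, with intervals that overlap in WT no leucine (17.0 to 28.3% and 27.2 to 37.0%) and are apart in the other 3. Of the 58, 46 were distal. The median mean percent rank of all 58 was 8.18%, beside 5.31% for the 198 regions outside repeats. Among families, RMER19 elements, a group of mouse LTRs, held 10 regions (3.91%), beside 0.416, 2.52 and 3.35% of regions in 1, 2 and 3 lists. B3 SINEs, a short rodent element, held 16 (6.25%), beside 1.70, 5.88 and 13.4%. By the peaks of WT no leucine, GCN2-/- complete and GCN2-/- no leucine, B3 SINEs held 17, 11 and 13 of the 256 (6.64, 4.30 and 5.08%). Both families were thus more frequent in regions of 2, 3 or 4 lists than in those of 1 list, but the B3 share was highest at 3 lists. Neither family was compared within the highest-scoring 10% of a list, so the part of score was not tested. RMER19 members ranked between 2.82% (Slc8a1) and 15.3% (Fam129a) on average over the lists. How reads from repeated copies were assigned was not given in the sources used here.

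The 4 peaks of a region lay close together. The distance from the lowest to the highest of the 4 centres had a median of 42 bp with quartiles of 25.8 and 64.2 bp, and it was at most 100 bp in 235 of 256 regions. Rxra had a spread of 9 bp, Ftl1 of 18 bp and Gclc of 24 bp. For a pair of lists the median distance between centres was 17 to 21 bp over the 6 pairs, beside 26 to 29 bp for regions in 3 lists and 33 to 63 bp for regions in 2 lists. The overlap rule bounds these distances, and scores also differ with the number of lists, whose part in the result was not tested.

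Spreads above 150 bp occurred at 7 regions: Ccr1 (343 bp), Rn45s (336 bp), Sfi1 (313 bp), Olfml2b (236 bp), Prl2c3 (221 bp), Chchd5 (202 bp) and Arntl (196 bp). Such regions were held together by small overlaps, the smallest being 18 bp at Rn45s, the ribosomal RNA gene, 83 bp at Olfml2b and 112 bp at Ccr1. Just outside the rule, with peaks in 3 lists, were a region at Pisd-ps3 that missed the WT complete list by 445 bp and a pair at Sfi1 that missed the WT no leucine list by 506 bp and the GCN2-/- complete list by 584 bp.

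**Figure D5:**
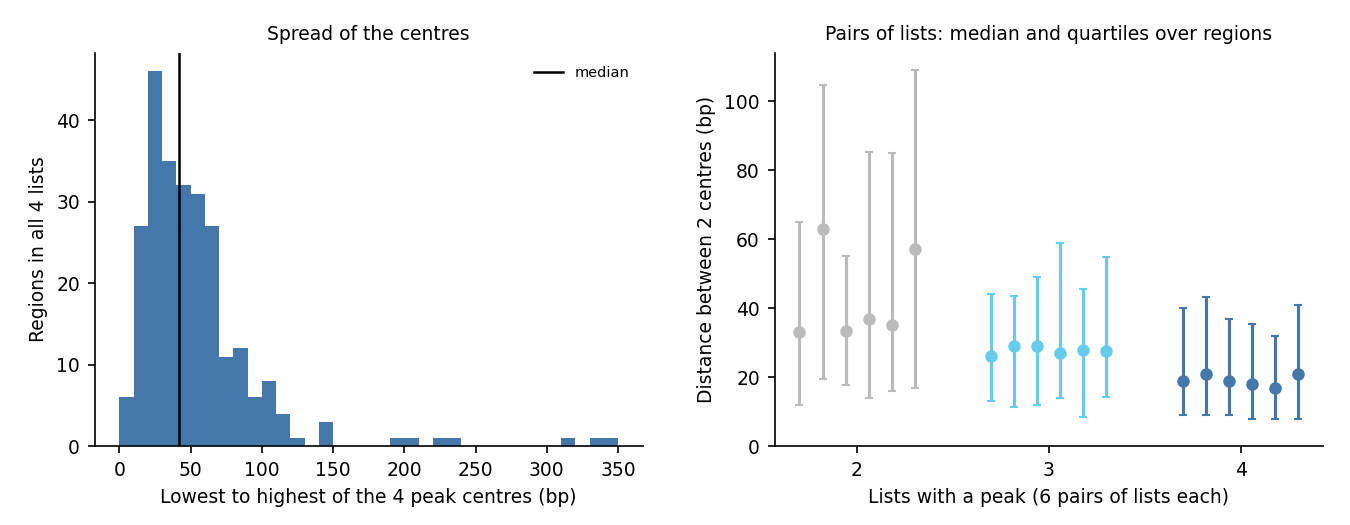
Left, number of regions by the distance in bp from the lowest to the highest of the 4 peak centres, with the median of 42 bp as a line; right, distance in bp between the centres of 2 lists (median and quartiles over regions) for each of the 6 pairs of lists, by the number of lists that share the region. Medians for regions in 4 lists lie at 17 to 21 bp, below those for 3 and 2 lists.

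The standing of a few regions differed widely between lists. The widest range was at 4930452A19Rik (-266594 bp), with scores of 111, 185, 16 and 261 and ranks 206.5, 122, 3110 and 53, so that it was near the end of the GCN2-/- complete list only. Numa1, which encodes a spindle pole protein, ranked 2273, 929.5, 118.5 and 131 and was near the end of the WT complete list. Nqo1 was lowest in the same list. Ccr1 ranked 600, 436.5, 1132.5 and 4503, and the Pisd-ps3 region at 25493 bp 2333, 2406, 1995.5 and 365. In all, 8 regions lay below the middle of 1 list and in the top 10% of the other 3, and for 6 of those the low list was WT complete. WT complete was the shortest list, and its depth is unknown.

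Regions lay in groups more than once: 8 groups of regions less than 100 kb apart held 18 of the 256 (7.03%). Beside Hmox1, Sqstm1, Txnrd1 and the Gstm genes, the long non-coding RNA gene Neat1, which builds paraspeckles, had regions at -2682 bp (ranks 99, 33, 61 and 55) and -4839 bp (36, 87.5, 76 and 123.5). The long non-coding RNA gene 2210408F21Rik had a promoter region (117.5, 107, 78 and 467.5) and one in intron 2 of 5 at 64274 bp (61, 213, 256 and 133). The pseudogene Pisd-ps3 on the unplaced sequence JH584304 had 3, at 28193, 25493 and -4992 bp, and the remaining group joined Cdh15 and Ankrd11. Of the 209 regions that missed a single list, 51 lacked a peak in WT complete, 27 in WT no leucine, 72 in GCN2-/- complete and 59 in GCN2-/- no leucine.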

How the data were processed

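NRF2 ChIP-seq peak lists from 4 libraries were used, of 6 samples. Reads were single, 50 bp long, per the labels' protocols, and BWA 0.7.12, MACS2 2.1.0 and HOMER 4.7 with build mm10 are named in the submitters' processing notes, without settings. Per the file headers, each library's peaks were called with the complete-medium input of its own genotype as control. The authors deposited 300 bp windows with a peak score, a whole number of at least 13 whose origin in the caller was not given in the sources used here, and CpG and GC content as a fraction of the window. Scores were only ranked within a list.

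Regions were built with pandas 2.3.3, checked on simulated peaks, and intervals are exact Clopper-Pearson at 95% (scipy 1.17.1). They cover counting error only and treat regions as independent. GC and CpG are means over the 4 windows, given in percent. Sequences and promoters are from RefSeq, GRCm38.p6. The 12 peaks without annotation entered no annotation class but stayed in the denominators of the shares, and they counted as not within 10 kb of a TSS. No p-value is given, because each condition has 1 library.

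Regions were named by fixed rules: members of the gene lists, the 10 best near a TSS and 12 best beyond 10 kb by mean percent rank, the 5 with the widest range, the 5 farthest, all promoter-TSS regions, genes with several regions and those around the overlap threshold. A region that meets these rules is not reported here, although the counts include it. There were 5 gene lists with 119 entries. The members, lists and rules were chosen with earlier results of these data known. Alternatives changed the overlap, the score threshold, list lengths, the peaks that enter, the annotating list, the distance limit and the motif.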

Additional observations from a re-analysis of the deposited data

How the results depend on the processing

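The number of regions was 251 with an overlap of 50% of each window, 248 with centres within 100 bp, 258 with peaks widened by 500 bp, 218 in the higher-scoring 50% of each list, 237 with lists of equal length and 251 on the main chromosomes without simple repeats. Leaving out WT complete, WT no leucine, GCN2-/- complete or GCN2-/- no leucine gave 306, 283, 328 and 314 regions in the other 3 lists, an alternative chosen after seeing the data. The median of the mean percent rank moved from 6.06 to 4.71% with the higher-scoring 50% of each list, since the lower ranks are gone by construction. The share of regions near a TSS moved with the limit, from 37.5% at 10 kb to 7.81% at 1 kb, 73.4% at 50 kb and 88.7% at 100 kb, and the NRF2 targets near a region went from 18 to 7 at 1 kb. The other 97 values under an alternative, which include classes, GC content, centre spread and the share with the ARE core, moved by less than their interval or by less than 1.5 times for counts. For the motif share, from 10 promoters, that interval is 44.4 to 97.5%, so this says little about its stability. The other sequences TGANTCA and TGACTCAGC gave 60 and 50%, beside 80% for the ARE core. No paired analysis was possible because the labels give no replicate numbers and each condition has 1 library. Depth is unknown, so a peak missing from a list does not show absence of binding.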

Other observations

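A few further regions are given as single values; they were picked after their values had been seen, belong to no list, and stand for no group of genes. The region nearest to Trp53cor1, a long non-coding RNA induced by p53, lay at -3089 bp from its TSS and at -8763.5 bp from the RefSeq TSS of Cdkn1a, the cell cycle inhibitor p21. Its scores were 680, 597, 150 and 283 in WT complete, WT no leucine, GCN2-/- complete and GCN2-/- no leucine, with ranks 10, 18.5, 94.5 and 44.5. Mdm2, the ubiquitin ligase of p53, had a region at -7063 bp with ranks 77, 41, 58 and 49. The Ftl1 region lay 5916.75 bp from the RefSeq TSS of Bax, a driver of cell death.

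Sod1, the cytosolic superoxide dismutase, had a region in intron 1 of 4, 273 bp from its TSS, with ranks 845.5, 314, 1029 and 162.5. Txn2, the mitochondrial thioredoxin, had one at -4912 bp with ranks 931, 360.5, 1623.5 and 215.5. Both stood highest, as a percentage of the list, in GCN2-/- no leucine. Ppard, a nuclear receptor of fatty acid use, had one in intron 1 of 7 with ranks 468, 124.5, 759.5 and 396.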
